A study of Mus musculus with 6 samples.

Results

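The dystrophin-glycoprotein complex was examined through 8 genes, namely Dmd, Utrn, Dag1, Sgca, Sgcb, Sgcd, Sspn and Sntb2. Its members were all probe sets whose single gene symbol in the platform annotation was one of these, which gave 20 of the 22690 probe sets on the array. A probe set is a group of short probes that together read one transcript, so several probe sets can read 1 gene and are not replicates of it. Transcript levels were measured in the superficial masseter, a jaw-closing muscle, and in the tibialis anterior, a muscle of the lower leg, of normal adult female C57Bl/6 mice aged 6 months. Each muscle had 3 samples with 1 array each, no treatment is named, and the comparison asks which transcripts differ between masticatory and limb muscle. It is not stated whether these samples represent different mice. The p-values therefore measure only the spread between samples, part of which may be technical.

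The complex spans the membrane of the muscle fibre and ties the actin cytoskeleton inside to the laminin-rich basement membrane outside. Dystrophin binds actin and the cytoplasmic tail of beta-dystroglycan, alpha-dystroglycan binds laminin through its sugar chains, and the sarcoglycans with sarcospan stabilise that link within the membrane. Syntrophins attach below it as adaptors for signalling proteins. Loss of dystrophin causes Duchenne muscular dystrophy, and loss of a sarcoglycan causes limb-girdle forms.

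Of the 20 probe sets, 15 passed a filter on low signal, set at a signal of 28.6, and these read 7 of the 8 genes. All 4 probe sets of Sntb2 and 1 of the 3 of Dmd lay under it and were not tested. With limma's test and adjustment over all 13576 probe sets kept, 0 of the 15 passed an adjusted p of 0.05, against 1.18% of all probe sets, and the lowest adjusted p of a member was 0.204. At an unadjusted p under 0.05 there were 3 of 15, or 20%, against 13.1% of all. The arrays of the muscles did not overlap for 4 of 15, or 26.7%, against 17.8% of all. Paired SAM, the test named in the design text, also called 0. The median log2 difference of the 7 brightest probe sets, masseter minus tibialis anterior, was 0.07, beside 0.02 over the brightest probe sets of all 8316 named genes. The members nearest to a difference were Sspn, with higher signals in every masseter array, and Sgca, with lower ones. All masseter arrays lay above all tibialis arrays for 3 member probe sets (9.21% of all probe sets did) and below them for 1 (8.63% of all).

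The stretches of 250 bases before the annotated starts of these members and of Dmd are shown, because Sspn and Sgca are the genes whose values lay farthest apart, in opposite directions, and dystrophin is the core of the complex. They come from RefSeq on GRCm38.p6, which held windows for 7 of the 8 members, 10 in all. Each reads 5′ to 3′ toward the start. Capitals mark the E-box CANNTG, the motif bound by myogenic basic helix-loop-helix factors, and the CArG box bound by serum response factor, searched on both strands. For Dmd and for Sspn, each with 2 annotated starts, 1 window is shown, in each case the one that held a marked motif.
Dmd, chrX:82948620-82948869, plus strand: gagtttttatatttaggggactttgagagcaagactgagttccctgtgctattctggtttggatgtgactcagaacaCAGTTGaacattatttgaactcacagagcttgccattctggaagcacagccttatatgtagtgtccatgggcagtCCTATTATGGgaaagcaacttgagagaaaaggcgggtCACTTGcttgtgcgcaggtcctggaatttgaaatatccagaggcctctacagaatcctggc
Sgca, chr11:94976328-94976577, minus strand: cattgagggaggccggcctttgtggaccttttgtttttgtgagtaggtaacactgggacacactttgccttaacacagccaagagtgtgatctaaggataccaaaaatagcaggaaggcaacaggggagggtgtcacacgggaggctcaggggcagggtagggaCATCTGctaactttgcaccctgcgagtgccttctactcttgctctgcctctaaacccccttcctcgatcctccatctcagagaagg
Sspn, chr6:145933872-145934121, plus strand: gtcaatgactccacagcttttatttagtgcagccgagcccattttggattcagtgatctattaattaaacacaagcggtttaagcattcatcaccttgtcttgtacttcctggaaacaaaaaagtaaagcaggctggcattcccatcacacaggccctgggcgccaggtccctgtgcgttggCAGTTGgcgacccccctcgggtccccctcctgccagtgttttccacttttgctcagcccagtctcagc

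The Dmd window held 2 E-boxes and 1 CArG box, which began 98 bases before the start. The Sgca window held 1 E-box, 86 bases before the start, and the Sspn window held 1, 68 bases before it. An E-box was present in 66.2% and a CArG box in 1.47% of the 32851 windows of this length in the table, so an E-box is common and says nothing particular about these genes. The other Sspn window, 1 further Dmd window and the window of Sgcb held 0 E-boxes. These matches describe the letters only, and no binding was measured.

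Sspn encodes sarcospan, a small protein with 4 membrane-spanning segments that sits with the sarcoglycans. Its brighter probe set, 1417644_at, had signals of 492, 650 and 508 in masseter 1, 2 and 3 and of 299, 427 and 425 in tibialis anterior 1, 2 and 3. Every masseter array lay above every tibialis array, and tibialis anterior 1 was the lowest of all. The log2 difference was 0.53 ± 0.16 (SE, n = 3 per muscle), a ratio of 1.44 with a 95% interval of 1.11 to 1.86, and limma's adjusted p was 0.204 (unadjusted p = 0.011). The dimmer probe set, 1417645_at, had signals of 59.3, 108 and 78.3 in the masseter and of 49.8, 58.8 and 48.5 in the tibialis anterior. Here too the muscles did not overlap, although masseter 1 lay only just above tibialis anterior 2. Its log2 difference was 0.61 ± 0.26 (SE, n = 3 per muscle), with limma's adjusted p = 0.369, and it was 0.385 without masseter 2. Both probe sets thus read the same direction in all 3 numbered pairs, but neither passed the test.

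**Figure D1:**
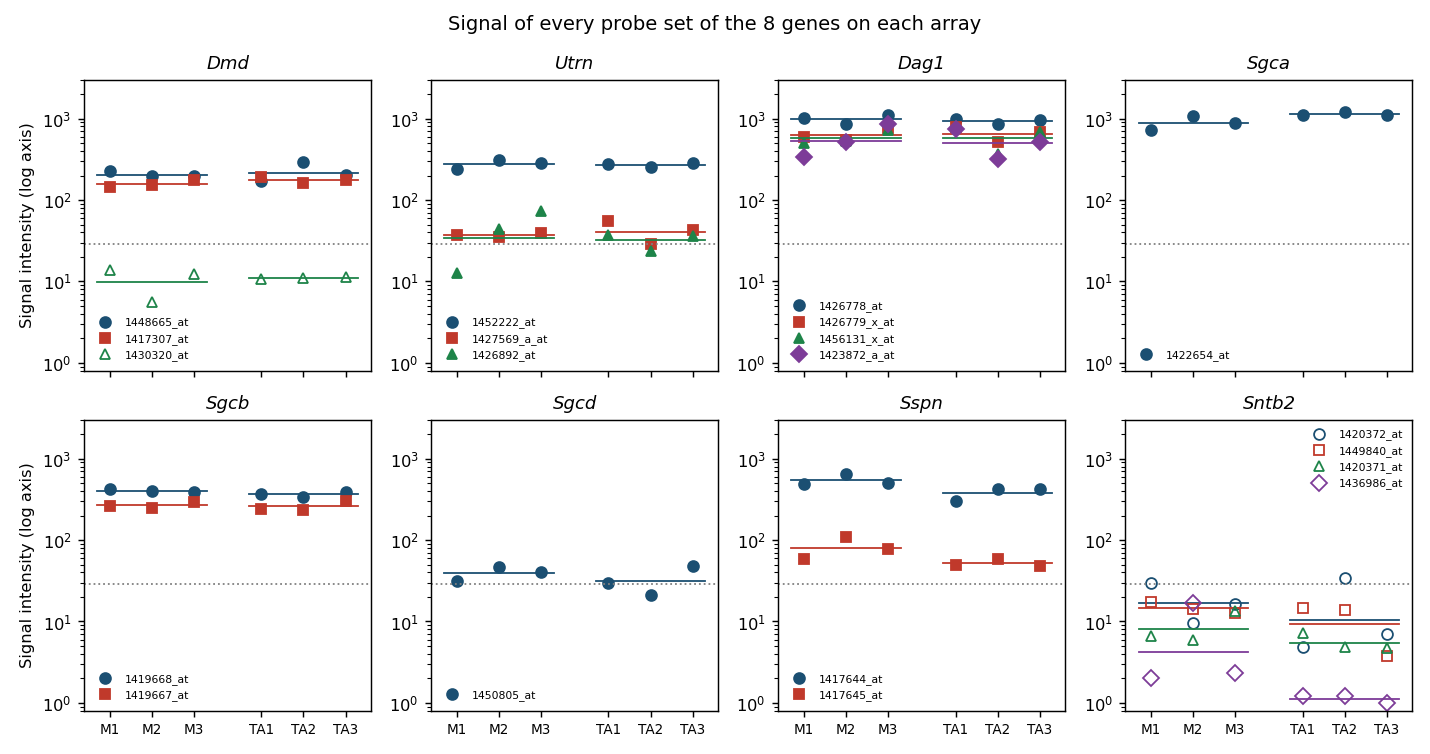
Signal intensity (log axis) of all 20 probe sets of the 8 genes on masseter arrays 1 to 3 (M) and tibialis anterior arrays 1 to 3 (TA). Points are single arrays, lines are the means of log2 signal within a muscle, open points mark probe sets under the filter, signals under 1 are drawn at 1, and the dotted line is the filter signal of 28.6. Both Sspn probe sets sit higher in every masseter array, Sgca sits lower, and all Sntb2 probe sets lie under the filter.

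Sgca encodes alpha-sarcoglycan, a sarcoglycan largely restricted to striated muscle. Its 1 probe set had signals of 723, 1077 and 888 in masseter 1, 2 and 3 and of 1095, 1197 and 1104 in tibialis anterior 1, 2 and 3. All masseter arrays lay below all tibialis arrays, with masseter 2 close to the tibialis level and masseter 1 the lowest. The log2 difference was -0.35 ± 0.15 (SE, n = 3 per muscle), a ratio of 0.782 with a 95% interval of 0.619 to 0.987, with limma's adjusted p = 0.357 (unadjusted p = 0.041). It was -0.21 without masseter 1, fitted without the replicate numbers (limma's adjusted p = 0.681). Masseter 1 was also the array with the lowest summed signal of 12 muscle fibre markers, 130944 against 152580 and 161668 in masseter 2 and 3 and 169101 to 171255 in the tibialis anterior. That sum includes Myh4, which read 5649, 7072 and 8100 in masseter 1, 2 and 3 and 17512.5 to 20228.3 in the tibialis anterior. Masseter 1 also held the highest summed signal of 9 salivary markers, 60478 against 7854 and 3234 in masseter 2 and 3. The part of either sum in the Sgca value was not tested. In whole-muscle RNA, fewer fibres and less transcript per fibre cannot be told apart.

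Sgcb and Sgcd encode beta- and delta-sarcoglycan, which form the core pair of the sarcoglycan subcomplex and are also made in smooth muscle. The brighter Sgcb probe set, 1419668_at, had signals of 426, 397 and 390 in the masseter and of 373, 336 and 388 in the tibialis anterior. The muscles did not overlap, but masseter 3 and tibialis anterior 3 differed by only 0.01 on the log2 scale. The difference was 0.15 ± 0.15 (SE, n = 3 per muscle), with limma's adjusted p = 0.761 and a 95% interval from 0.867-fold to 1.42-fold. The other Sgcb probe set ran from 248 to 294 in the masseter and from 237 to 305 in the tibialis anterior, and these ranges overlapped. The Sgcd probe set lay near the filter, with signals of 31.7, 46.7 and 40.2 in the masseter and of 29.8, 21.0 and 47.9 in the tibialis anterior. Tibialis anterior 3 was its highest array and tibialis anterior 2 its lowest. Its difference of 0.33 ± 0.43 (SE, n = 3 per muscle; limma's adjusted p = 0.816) had an interval from 0.634-fold to 2.49-fold, which includes a 2-fold higher but not a 2-fold lower masseter level, and the difference was -0.08 without replicate 2.

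Dmd encodes dystrophin, the rod-shaped link between actin and dystroglycan. The brighter probe set, 1448665_at, had signals of 226, 195 and 197 in masseter 1, 2 and 3 and of 169, 292 and 201 in tibialis anterior 1, 2 and 3. The tibialis arrays held both the lowest and the highest value and enclosed the masseter range. The difference was -0.06 ± 0.22 (SE, n = 3 per muscle; limma's adjusted p = 0.937), and its sign rested on tibialis anterior 2, without which it was 0.16. The other tested probe set, 1417307_at, had signals of 144, 151 and 178 in the masseter and of 190, 163 and 177 in the tibialis anterior. The ranges overlapped, with a difference of -0.17 ± 0.18 (SE, n = 3 per muscle; limma's adjusted p = 0.767). The intervals of the 2 probe sets ran from 0.677-fold to 1.36-fold and from 0.664-fold to 1.19-fold. The third probe set read 5.6 to 14.0 in the masseter and 10.6 to 11.2 in the tibialis anterior, under the filter on every array.

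Both tested Dmd probe sets read the same gene but did not follow each other from array to array. Their log2 signals had a Pearson correlation of -0.46 over the 6 arrays, which share their total scale, and this is given as a description. Tibialis anterior 2 was the highest array for the one and tibialis anterior 1 for the other. Where on the transcript each probe set lies was not analysed here. The ratio of the 3′ to the 5′ control signal of Gapdh depends on how far labelling reached along a transcript and on how intact the RNA was. It was 2.66 ± 0.23 (SD, n = 3) for masseter arrays and 1.94 ± 0.11 (SD, n = 3) for tibialis arrays. Every masseter array (2.46 to 2.92) lay above every tibialis array (1.87 to 2.07). The exact permutation p was 0.1, which is as small as 3 arrays a side permit. For Actb the ratio averaged 2.96 ± 0.34 on masseter arrays against 2.70 ± 0.11 on those of the tibialis anterior (SD, n = 3 each), and the exact permutation test gave p = 0.3. The part of these ratios in the Dmd values, or in any other difference between the muscles given here, was not tested.

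Utrn encodes utrophin, the autosomal relative of dystrophin, which in adult fibres is concentrated at the neuromuscular and myotendinous junctions and is also made by blood vessels and nerve. The brightest probe set, 1452222_at, had signals of 243, 307 and 286 in masseter 1, 2 and 3 and of 277, 256 and 285 in tibialis anterior 1, 2 and 3. The ranges overlapped, and the masseter held the lowest and the highest array. The difference was 0.02 ± 0.17 (SE, n = 3 per muscle; limma's adjusted p = 0.971), with an interval from 0.775-fold to 1.33-fold. A 2-fold difference in either direction lay outside this interval. The dimmer probe sets were less precise. The signals of 1427569_a_at ran from 35.6 to 39.8 in the masseter and from 28.9 to 54.6 in the tibialis anterior. Those of 1426892_at were 12.8, 43.5 and 73.5 in the masseter against 23.8 to 37.6 in the tibialis anterior, a 5.74-fold span over all arrays, and masseter 1 and masseter 3 were its extremes. Its difference was 0.11 ± 0.57 (SE, n = 3 per muscle; limma's adjusted p = 0.958), and 0.95 without replicate 1 (limma's adjusted p = 0.329).

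The balance of utrophin to dystrophin was read as the log2 signal of 1452222_at minus that of a Dmd probe set on the same array, which compares muscles and says nothing of the absolute ratio of the transcripts. With 1448665_at it was 0.10, 0.65 and 0.54 in the masseter and 0.71, -0.19 and 0.51 in the tibialis anterior. The muscles overlapped (exact permutation p = 0.8). With 1417307_at it was 0.76, 1.02 and 0.69 in the masseter and 0.54, 0.65 and 0.69 in the tibialis anterior (exact permutation p = 0.1, the smallest possible). The mean differences between the muscles were 0.09 and 0.20, both small beside a 2-fold difference, which is 1 on this scale.

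**Figure D2:**
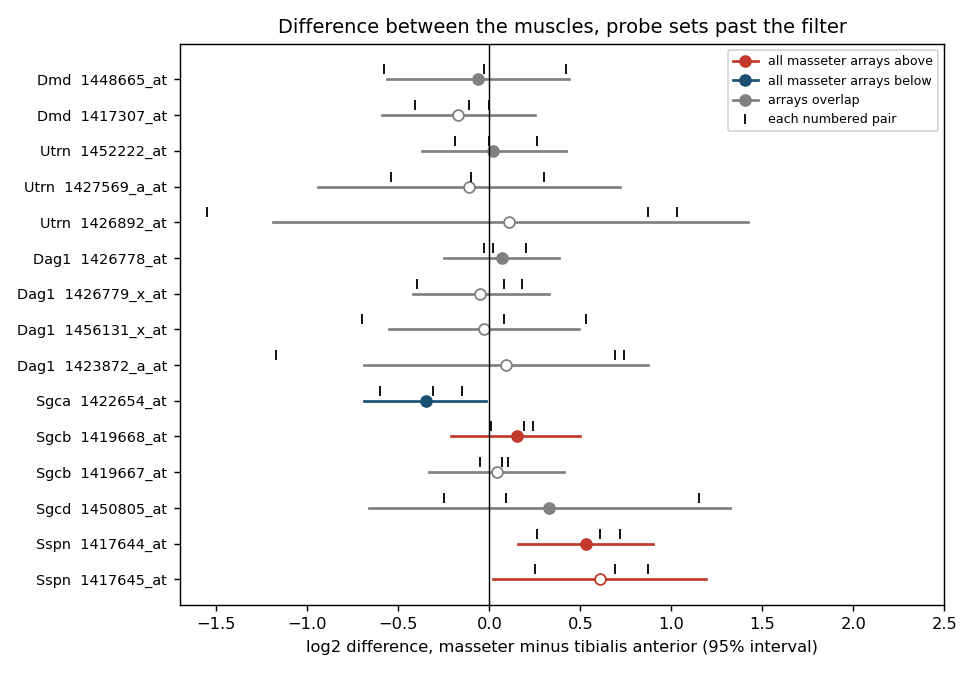
Log2 difference, masseter minus tibialis anterior, of the 15 probe sets past the filter, with limma's 95% interval; filled points are the brightest probe set of a gene and ticks are the 3 numbered pairs. Colour marks whether the arrays of the muscles overlapped; the intervals of both Sspn probe sets lie above 0, that of Sgca lies below 0, and the other 12 include 0.

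Dag1 encodes dystroglycan, a precursor cut into the laminin-binding alpha subunit and the membrane-spanning beta subunit. It had 4 probe sets, all past the filter. The brightest, 1426778_at, had signals of 1007, 849 and 1100 in masseter 1, 2 and 3 and of 992, 864 and 955 in tibialis anterior 1, 2 and 3. These ranges overlapped, with a difference of 0.07 ± 0.14 (SE, n = 3 per muscle; limma's adjusted p = 0.894) and an interval from 0.842-fold to 1.30-fold. This was the narrowest of the intervals on the 7 brightest probe sets.

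The remaining Dag1 probe sets had differences of -0.05, -0.03 and 0.09, with limma's adjusted p from 0.94 to 0.973, and varied more among arrays. The probe set 1423872_a_at had signals of 334, 510 and 860 in the masseter and of 749, 316 and 515 in the tibialis anterior. Its highest array was 2.72 times its lowest, against 1.30 times for 1426778_at. Within a muscle its SD was 0.65 on the log2 scale, which lay at the 91.9th percentile of all probe sets kept, whose median was 0.28. The SD of 1426778_at was 0.15. The probe sets 1426779_x_at and 1456131_x_at, whose suffix marks probes shared with other sequences, spanned 1.53-fold and 2.22-fold. All 4 probe sets had lower signals in tibialis anterior 2 than in masseter 3. The Pearson correlations between pairs of the 4 over the 6 arrays ran from 0.57 to 0.94, given as a description. The numbered pairs of 1423872_a_at differed by -1.17, 0.69 and 0.74, so pair 1 ran against the others. Its difference of 0.09 was 0.72 without replicate 1 (limma's adjusted p = 0.0907).

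**Figure D3:**
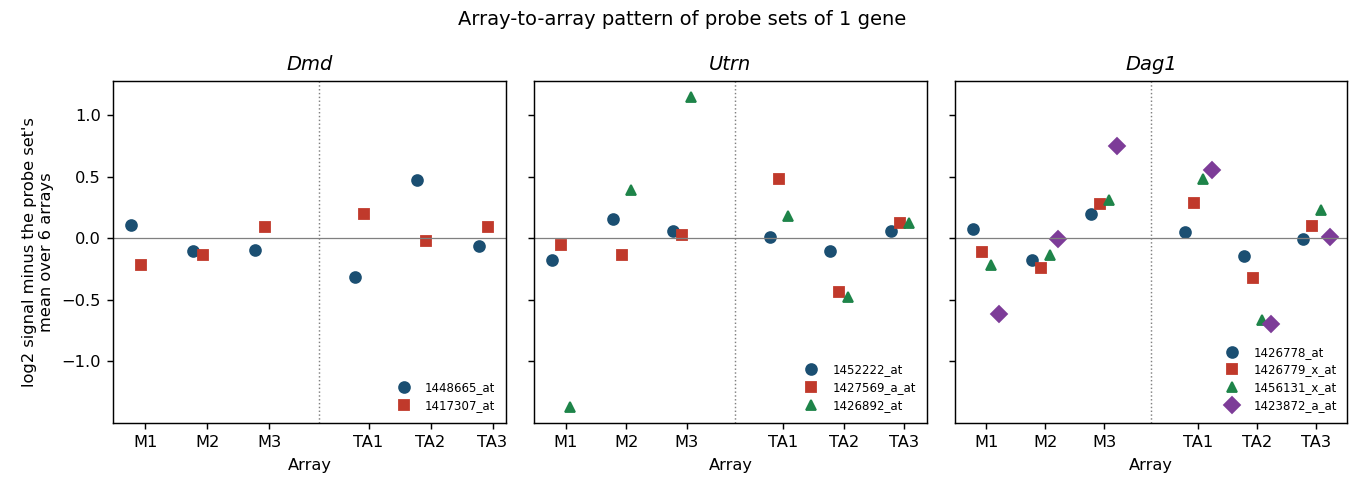
Log2 signal of each probe set past the filter, minus its own mean over 6 arrays, for Dmd, Utrn and Dag1 on masseter arrays 1 to 3 (M) and tibialis anterior arrays 1 to 3 (TA). Points are single arrays, set slightly apart for each probe set. The 2 Dmd probe sets run against each other in tibialis anterior 1 and 2, the dim Utrn probe set spreads most within the masseter, and the Dag1 probe sets share low values in tibialis anterior 2.

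Sntb2 encodes beta-2-syntrophin, a PDZ-domain adaptor concentrated at the neuromuscular junction. Its 4 probe sets lay under the filter. The brightest, 1420372_at, read 29.4, 9.7 and 16.6 in the masseter and 4.9, 34.4 and 7.0 in the tibialis anterior, with 1 array of each muscle above the filter signal. The others read at most 17.3 on any array. At these signals no difference could be measured, and the values say nothing about whether the gene is expressed.

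Beyond the members, 6 lists of genes around the complex were counted, with 65 genes tested. Of these, 0 passed an adjusted p of 0.05 with a higher masseter level and 1 passed with a lower one. The shares of all named genes were 0.709% and 0.661%, and 1.37% in either direction. Of the 65, 13 had an unadjusted p under 0.05, a larger share than the 13.9% of all named genes that had one. Among the other subunits and close partners, 0 of 4 tested genes passed, and the median difference was 0.29. Cav3, muscle caveolin, which binds the tail of beta-dystroglycan, had signals of 359, 591 and 531 in the masseter and of 251, 291 and 226 in the tibialis anterior. Every masseter array was higher, and the difference of 0.92 ± 0.18 (SE, n = 3 per muscle) missed the threshold (limma's adjusted p = 0.0631). It passed in 2 of 16 alternatives, without replicate 1 (adjusted p = 0.0194) and without masseter 1 (adjusted p = 0.0332). In the others the adjusted p ran from 0.0523 (filter at the 60th percentile) to 0.284 (eBayes without trend). Sgce, epsilon-sarcoglycan, a relative of alpha-sarcoglycan made in many tissues, had signals of 156, 151 and 132 against 104, 85.1 and 101, also without overlap. Its difference of 0.60 ± 0.20 (SE, n = 3 per muscle) did not pass (limma's adjusted p = 0.231).

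Of the enzymes that build the sugar chain of alpha-dystroglycan, 0 of 11 passed, with a median of 0.00. The smallest p-values were those of Pomk, a kinase of the O-mannosyl glycan, at 0.56 ± 0.26 (adjusted p = 0.415), and of Pomt1, an O-mannosyltransferase, at 1.10 ± 0.58 (adjusted p = 0.482). Pomt1 lay near the filter, and tibialis anterior 1 read 5.7 against 31.1 to 49.9 on the other arrays. Without tibialis anterior 1 the Pomt1 difference was 0.20 (adjusted p = 0.893). The second Pomk probe set had the opposite sign, at -0.16 ± 0.32. Of the basement membrane genes, 0 of 15 passed, with a median of -0.07. Nid1, the laminin-binding nidogen, was at 0.52 ± 0.16 (adjusted p = 0.219), and Bgn, the proteoglycan biglycan, at -0.64 ± 0.23 (adjusted p = 0.272), and both overlapped between the muscles. The second Nid1 probe set, near the filter, had the opposite sign, at -0.58 ± 1.16 (adjusted p = 0.891). Adjusted p-values in these lists are limma's, with n = 3 per muscle.

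Of the cytoskeletal links, 1 of 16 passed. Tln1, talin 1, which couples integrins to actin, had signals of 165, 200 and 102 in the masseter and of 424, 487 and 602 in the tibialis anterior. Which cells of the muscle this signal came from was not tested. The muscles were well apart, with a difference of -1.73 ± 0.26 (SE, n = 3 per muscle; limma's adjusted p = 0.0223). The call held in 12 of 16 alternatives and was lost with eBayes without trend (adjusted p = 0.233), with paired SAM (0.08) and without tibialis anterior 2 (0.0571) or 3 (0.0656), and its dimmer probe set did not pass (-0.74 ± 0.35). The median of this list was 0.01. Of the membrane repair genes, 0 of 10 passed, with a median of 0.18. The annexins Anxa6 and Anxa2 were at 0.50 ± 0.16 and 0.52 ± 0.17 (adjusted p = 0.212 and 0.221), with every masseter array above every tibialis array. Of the neuromuscular junction genes, 0 of 9 passed, with a median of -0.19. The acetylcholine receptor subunits Chrnb1 and Chrna1 were at -1.04 ± 0.22 and -0.59 ± 0.20 (adjusted p = 0.0775 and 0.251). Chrnb1 passed in 2 of 16 alternatives, without replicate 3 (adjusted p = 0.0477) and without masseter 3 (adjusted p = 0.0196). In the others the adjusted p ran from 0.0556 (filter at the 60th percentile) to 0.408 (without masseter 2). The receptor clustering gene Rapsn was at 0.25 ± 0.21.

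**Figure D4:**
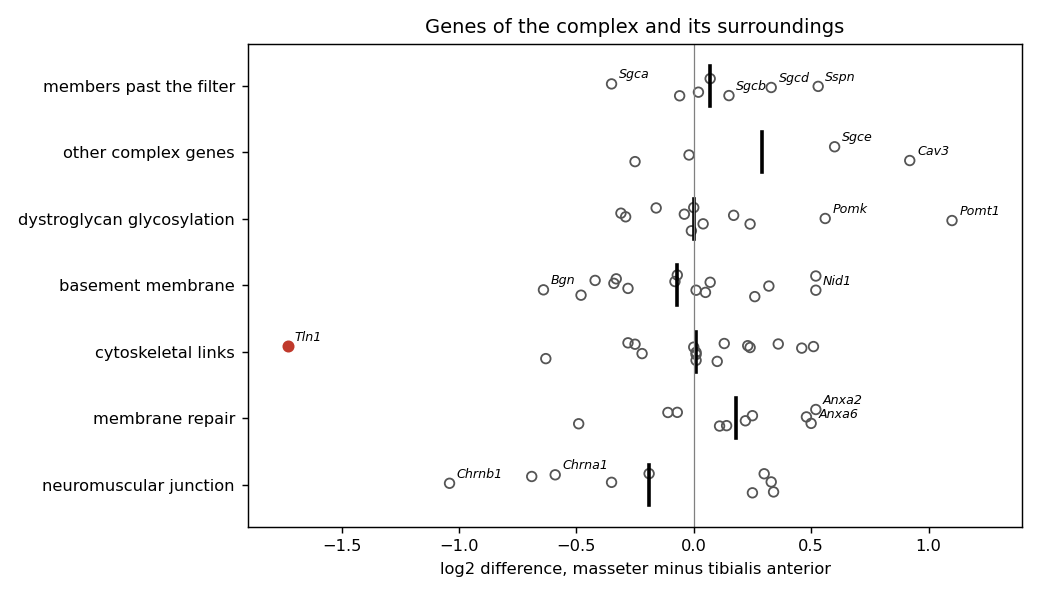
Log2 difference, masseter minus tibialis anterior, of the brightest probe set of each gene in the complex and in 6 surrounding lists; thick bars are medians and the filled point passed an adjusted p of 0.05. Tln1 is the 1 filled point, and the list medians lie between -0.19 and 0.29.

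Markers of muscle fibres were present on all arrays, with 12 of 12 past the filter, and Mb and Acta1 were the brightest, at mean signals of 20687 and 18786 in the masseter. Of the 12, only Myh4 passed, lower in the masseter, at mean signals of 6866 against 19012 in the tibialis anterior. The sum and the mean log2 signal of the muscle list include Myh4. With Myh4 taken out of either, masseter 3 lies above tibialis anterior 1 and 3. The separation of the muscles by this list therefore depends on Myh4. The summed marker signals of 3 other lists (nerve, adipocyte, smooth muscle) also separated the muscles, each with an exact permutation p of 0.1, the smallest possible. The sum of 8 Schwann cell and nerve markers, led by Mbp and Pmp22, was 1236 to 1358 in the masseter and 791 to 945 in the tibialis anterior, with 0 of 6 tested members past the threshold. The sum of 6 adipocyte markers, mostly Lpl and Fabp4, of which fibres also make Lpl, was 16846 to 18253 and 12337 to 14852, with 1 of 5 tested members, Adipoq, past the threshold. The sum of 10 smooth muscle and pericyte markers, led by Rgs5 and Des, of which fibres also make Des and Des ran the other way (0.36), was 8031 to 8441 and 8701 to 9588, with 0 of 9 past the threshold. No list held a marker at or under a signal of 1 on all arrays. As mean log2 signal over the list, in place of the sum, the muscle list still separated (exact permutation p = 0.1), and the nerve, adipocyte and smooth muscle lists did not (exact permutation p = 0.4, 0.2 and 0.4). The sums of the endothelial (led by Esam and Vwf), fibroblast (Dcn and Col1a2), immune (H2-Aa and Cd74) and satellite cell (Cd34 and Cdh15) lists overlapped between the muscles, with exact permutation p-values of 0.4, 0.2, 0.6 and 0.3. Of their tested members, Dpt and Cd34 passed, higher in the masseter by 1.19 (SE 0.19, limma's adjusted p = 0.0267) and 0.99 (SE 0.18, limma's adjusted p = 0.0427) on the log2 scale. The sum of 9 salivary markers was 60478, 7854 and 3234 in masseter 1, 2 and 3. It was 5896, 3316 and 2435 in tibialis anterior 1, 2 and 3, so it fell in the same numbered order in both muscles. Masseter 3 lay within the tibialis range (exact permutation p = 0.3). In masseter 1 Bpifa2, named after its values were seen, and Amy1 had the highest signals of the list, 16595 and 12976, while Smr2, the brightest by mean log2 signal over all arrays, read 1010. Of the salivary genes Chia1, Pip and Smr3a passed, with overlapping muscles. These calls were lost without the block (limma's adjusted p = 0.345, 0.302 and 0.529) and without masseter 1 (0.588, 0.528 and 0.818), and they held in 6 of 15, 7 of 16 and 5 of 16 alternatives. The Adipoq call was also lost without the block (0.228) and without masseter 1 (0.411). Across 16 alternative settings Adipoq and Dpt passed in 7 each and Cd34 in 4, and leaving out any 1 replicate number ended the Cd34 call (adjusted p from 0.06 to 0.233). The nerve and adipocyte sums thus lay in the same direction as Sspn. The smooth muscle sum and the muscle sum, whose separation depended on Myh4, lay in that of Sgca. The part of these in the Sspn and Sgca values was not tested. Without masseter 1, which held the high salivary signal, the Sspn difference was 0.60 and the Sgca difference was -0.21.

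The patterns nearest to those of the central members over the 6 arrays were found by the root mean square difference of log2 signals, each centred on its own mean. For Dmd these were S100a1, Pgap2 and Nudt19, at distances of 0.075, 0.076 and 0.085. For Utrn they were Seh1l, Sult5a1 and Rnf121, at 0.011, 0.023 and 0.038. For Dag1 they were Armc10, Ggnbp2 and Wdr83, at 0.039, 0.042 and 0.046. All 9 had differences between -0.17 and 0.11, so the list names genes that were, like these members, nearly level between the muscles.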

How the data were processed

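Transcripts were measured on Affymetrix Mouse 430 2A arrays. The values the authors deposited are linear signal intensities, 1 for each probe set on each array; per the submitters' processing notes MAS5 and GCOS were used, with versions and settings not given in the sources used here. Every array had a 2% trimmed mean of 150.1, so no scaling was added. Precision is limited by the number of arrays. A floor of 1 was applied to the signals before log2 conversion, the 64 controls were left out, and probe sets with a mean log2 signal at or above the 40th percentile (4.84) were kept. Symbols came from the platform annotation, checked by gene identifier against RefSeq (0 changed, 29 not placed). The comparison used limma 3.58.1 under R 4.3.3 (lmFit, eBayes with trend, two-sided), with the replicate number as a fixed block because the design text describes paired comparisons, and Benjamini-Hochberg adjustment over all probe sets kept. The brightest probe set stood for each gene. The procedure was run on data simulated from its own fitted model with normal noise, which cannot check the assumptions of that model. Sums of markers and the Utrn minus Dmd differences were compared by exact two-sided permutation tests over samples.

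The members and lists were chosen with earlier results of these data known. Named genes were all members, up to 3 genes past the threshold of each list (in surrounding lists with none, the 2 with the smallest p), the 2 brightest members of marker lists, and the 3 genes nearest in pattern to Dmd, Utrn and Dag1. Rapsn, Bpifa2 and the within-array differences were chosen after their values were seen. The alternatives were the block, the eBayes trend, paired SAM, the filter, quantile normalization, an offset of 16, leaving out pairs or arrays, and the mean over probe sets. Those for named genes outside the complex were added after seeing the data. Listed genes without a probe set of 1 symbol are not analysed here.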

Additional observations from a re-analysis of the deposited data

How the results depend on the processing

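In all 17 alternatives 0 members passed. Of 118 alternative values of the brightest probe sets, 109 kept their direction, and those of Sspn (0.36 to 0.66), Sgca (-0.50 to -0.21) and Sgcb (0.09 to 0.22) did so throughout. With pairs or arrays left out, the others ran from -0.30 to 0.20 (Dmd), -0.09 to 0.13 (Utrn), -0.02 to 0.17 (Dag1) and -0.08 to 0.64 (Sgcd). The sign turned for Dmd without replicate 2 (0.20) and without tibialis anterior 2 (0.16), and for Utrn with quantile normalization (-0.00023), without replicate 2 (-0.09), without masseter 2 (-0.05) and without tibialis anterior 2 (-0.02). It also turned for Dag1 without replicate 3 (-0.0026) and without masseter 3 (-0.02), and for Sgcd without replicate 2 (-0.08). With the filter at the 60th percentile Sgcd gave no value. These are differences near 0, and the cause of each was not tested beyond the samples left out.

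Over all probe sets, 160 passed. The count was 138 without the replicate block, 13 with eBayes without trend and 65 with paired SAM, and 47 to 188 with a pair or an array left out. Whether the replicate number pairs the samples was checked by the correlation of deviations from the muscle means, which was 0.039, 0.152 and 0.101 for numbers 1, 2 and 3 and ran from -0.157 to 0.047 over the 6 pairs with unlike numbers, of which 4 were below 0. Number 1 did not exceed 0.1, and masseter 1 correlated slightly more with tibialis anterior 2 (0.041), so the data do not settle whether the number marks a pair. The salivary sum fell from number 1 to number 3 in both muscles, from 60478 to 3234 in the masseter and from 5896 to 2435 in the tibialis anterior. Smr2 of that list did not follow this order in the masseter. The cause of the shared order was not tested. The block was kept because the design text describes paired comparisons. Without the block the adjusted p of Sspn was 0.288. Fits that leave out 1 array do not match the numbers. Signals of Sgcd, the dim Utrn probe sets and Sntb2 lie near or under the filter, which limits what can be read there.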

Other observations

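Sspn and Sgca, chosen after their values were seen, were set against each other on the same array, as a description with no test. The log2 signal of Sspn minus that of Sgca was -0.55, -0.73 and -0.81 on the masseter arrays, in numbered order. On the tibialis arrays it was -1.87, -1.49 and -1.38. The choice of a gene above and a gene below on every masseter array fixes the direction and the lack of overlap, so only the size of 0.88 between the means of -0.70 ± 0.13 (SD, n = 3) and -1.58 ± 0.26 (SD, n = 3) is added here.

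Among the close partners of the complex that did not separate the muscles were Nos1, neuronal nitric oxide synthase, which docks on the complex through syntrophin, and Dtna, alpha-dystrobrevin. Nos1 had signals of 169 to 236 in the masseter and 196 to 206 in the tibialis anterior (-0.02 ± 0.18, limma's adjusted p = 0.977). Dtna had 194 to 336 and 290 to 330 (-0.25 ± 0.21, limma's adjusted p = 0.685) on the brightest of its 6 probe sets past the filter. The others are not given here. Lama2, the laminin chain that binds alpha-dystroglycan in muscle, had 152 to 190 in the masseter and 201 to 241 in the tibialis anterior, without overlap (-0.34 ± 0.17, limma's adjusted p = 0.446). These genes were chosen after their values were seen.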
